A study of Mus musculus with 26 samples.

Results

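The DNA methylation of 9 pluripotency genes was examined in mouse sperm. The genes were Pou5f1 (gene ID 18999), Nanog (71950), Sox2 (20674), Klf4 (16600), Dppa3 (73708), Dppa4 (73693), Zfp42 (22702), Tdgf1 (21667) and Lin28a (83557), out of 49943 genes in the RefSeq table of GRCm38.p6. A CpG position belonged to a gene when it lay inside the gene's span or within 2000 bp of it, and it was used in a library where at least 10 reads covered it. Of 2626470 positions that reached 10 reads in at least 1 library, 803 belonged to the 9 genes. All 9 genes had such positions, from 4 at Nanog to 248 at Klf4.

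Reduced-representation bisulfite sequencing (RRBS), which enriches CpG-rich restriction fragments and reads methylated cytosines as those that bisulfite left unconverted, was applied to purified epididymal sperm of 26 male mice. SSCT stands for spermatogonial stem cell transplantation. The question was whether the methylation of sperm differs after transplantation of cultured stem cells, in the transplanted males and in their offspring. The SSCT F0 group held 3 sterile W/W-v recipients, 16 to 18 months old, whose sperm came from DBA/2J spermatogonial stem cells that had been grown over several passages on mouse embryonic fibroblasts. For control F0, 3 males of the DBA/2J strain in the same age range were taken without transplantation. All offspring were 3 months old, with 5 males in each group: control F1 from inbred DBA/2J matings, SSCT F1 from transplanted males and DBA/2J females, SSCT F2/M bred from SSCT F1 mothers and SSCT F2/P bred from SSCT F1 fathers. The published heat map names the same 4 sets of 5 offspring libraries differently from the sample titles. The titles were used here, and each of the 6 pairs of single sets was also compared. The pooled F2 group was compared under the other names for single CpGs only, and control F0 with control F1 under the titles only.

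Pluripotency genes form a transcriptional network that keeps embryonic stem cells and the inner cell mass able to give rise to every cell type. Pou5f1 (OCT4), Nanog, Sox2 and Klf4 encode its core transcription factors, Zfp42 (REX1) a zinc finger protein typical of naive embryonic stem cells, Dppa3 (STELLA) a protein that guards the maternal genome against demethylation after fertilisation, and Dppa4 a chromatin protein of early embryos. Tdgf1 (Cripto) encodes a co-receptor of Nodal signalling and Lin28a an RNA-binding protein that blocks let-7 maturation. In sperm, CpG-rich promoters are generally unmethylated whereas most of the rest of the genome is methylated.

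The libraries held between 45616751 and 87707577 reads at CpG positions. In 23 libraries 1465300 to 1790008 positions had 10 reads, with a median of 23 to 38 reads at them, and 460 to 643 of these positions lay in the 9 genes. The SSCT F0 libraries stood apart. Replicate 3 had 10 reads at only 175649 positions, with a median of 392 reads, and at 89 positions of the 9 genes. Replicate 2 had 965381 such positions, 401 of them in the 9 genes, and replicate 1 had 1527632, 549 of them in the 9 genes. The labels state a lower DNA input for SSCT F0. Positions measured in all 6 F0 libraries therefore numbered 42 in the 9 genes, with none in Pou5f1, Nanog, Dppa3 and Tdgf1, against 237 without replicate 3. The calls of positions and windows and the gene means for SSCT F0 are given with and without that library, limma only with it. Promoters of 12 genes known to be unmethylated in sperm and methylated in somatic cells were used as a check for other DNA. Of these, 6 to 9 were measured per library. Their mean level was 1.5 to 4.65% in the 23 other libraries and 5.89%, 3.99% and 6.60% in SSCT F0 replicates 1, 2 and 3, where the highest single promoters were those of Mael at 15.4%, Nap1l5 at 21.5% and Peg3 at 33.3%. In the 23 other libraries the highest single promoter lay between 4.10% (Ddx4, control F1 replicate 3) and 13.9% (Peg3, SSCT F2/P replicate 2). No library had a check of the opposite kind, since the mean of the 5000 bp before Meg3 and before Rasgrf1 was 0.024 to 7.91% in the libraries.

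The RRBS reads reached the gene starts unevenly, and the sequence before each start shows where. The 250 bases before the start of 4 genes are given here from the RefSeq table of GRCm38.p6, with the CpGs that had 10 reads in at least 1 library in capitals. Sox2 (chr3:34649745-34649994, plus strand) and Klf4 (chr4:55532476-55532725, minus strand) are shown as CpG-rich starts that were read densely, Pou5f1 (chr17:35505782-35506031, plus strand) as a start read at its far edge only, and Nanog (chr6:122707239-122707488, plus strand) as a start that was not read.
Sox2: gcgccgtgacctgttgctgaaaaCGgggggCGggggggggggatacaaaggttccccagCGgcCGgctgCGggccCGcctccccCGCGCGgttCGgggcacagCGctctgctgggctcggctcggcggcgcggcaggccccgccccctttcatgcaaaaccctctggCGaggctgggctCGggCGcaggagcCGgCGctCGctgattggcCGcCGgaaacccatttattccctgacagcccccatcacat
Klf4: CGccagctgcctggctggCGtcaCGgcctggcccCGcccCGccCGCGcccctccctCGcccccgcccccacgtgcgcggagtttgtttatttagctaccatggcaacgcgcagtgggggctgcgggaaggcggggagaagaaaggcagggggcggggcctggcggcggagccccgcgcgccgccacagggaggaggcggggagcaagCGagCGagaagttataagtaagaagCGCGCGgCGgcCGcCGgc
Pou5f1: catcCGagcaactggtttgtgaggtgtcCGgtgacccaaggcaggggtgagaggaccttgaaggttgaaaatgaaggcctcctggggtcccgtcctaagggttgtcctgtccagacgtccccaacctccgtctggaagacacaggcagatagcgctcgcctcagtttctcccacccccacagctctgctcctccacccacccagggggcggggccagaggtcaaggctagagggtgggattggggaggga
Nanog: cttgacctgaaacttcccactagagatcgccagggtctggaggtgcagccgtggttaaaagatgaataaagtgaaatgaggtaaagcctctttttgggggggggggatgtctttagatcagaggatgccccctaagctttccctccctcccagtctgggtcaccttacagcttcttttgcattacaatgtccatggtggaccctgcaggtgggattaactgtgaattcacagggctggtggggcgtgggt

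The Sox2 stretch holds 27 CpGs, of which 19 were measured, and the Klf4 stretch 32, of which 16 were measured. The Pou5f1 stretch holds 8 with 2 measured and the Nanog stretch 3 with 0 measured. Over 32851 promoters of the table the median was 6 CpGs in 250 bases. The letters CCGG, which read the same on both strands and are the site of MspI, the enzyme commonly used for RRBS, were found in 47.1% of these stretches. They occur 3 times in the Sox2 stretch, 1 time each in those of Klf4 and Pou5f1, and 0 times in that of Nanog. Zfp42 and Tdgf1 held 9 and 7 CpGs with 0 measured in these 250 bases, and Lin28a held 7 with 2 measured. Values for the Zfp42 and Tdgf1 promoters below therefore come from CpGs farther away, since the promoter was taken as 1000 bp before to 500 bp after the gene start and the gene body as the rest of the gene. Dppa3 and Dppa4 have no start in the promoter table and are described as whole genes.

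The 9 genes ranged from nearly unmethylated to nearly fully methylated, while the offspring groups lay close together at each of them. At the positions shared by the 23 libraries other than SSCT F0, the 20 offspring libraries averaged 96.0% ± 5.64 (SD) at Nanog, from 76.7 to 100%, over 4 positions. Pou5f1 followed at 34.7% ± 8.04 over 4 positions and Lin28a at 26.3% ± 1.63 over 31. Dppa4 was at 11.8% ± 4.10 over 8 positions, Klf4 at 11.7% ± 2.12 over 44 and Zfp42 at 9.68% ± 2.32 over 27. Dppa3 (1.83% ± 2.14, 7 positions) and Sox2 (1.75% ± 1.47, 22 positions) were close to the 0.542 to 1.26% that the unmethylated control DNA read in the libraries. Dppa4, Klf4 and Zfp42 could not be ordered beyond the spread between libraries, nor could Dppa3 and Sox2, and the ranges of Pou5f1 (16.5 to 50.0%) and Lin28a (23.2 to 30.2%) overlapped. Tdgf1 had no position shared by these libraries. These levels are means over the CpGs that the fragments happened to cover, so that the order describes those CpGs and not whole genes.

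**Figure D1:**
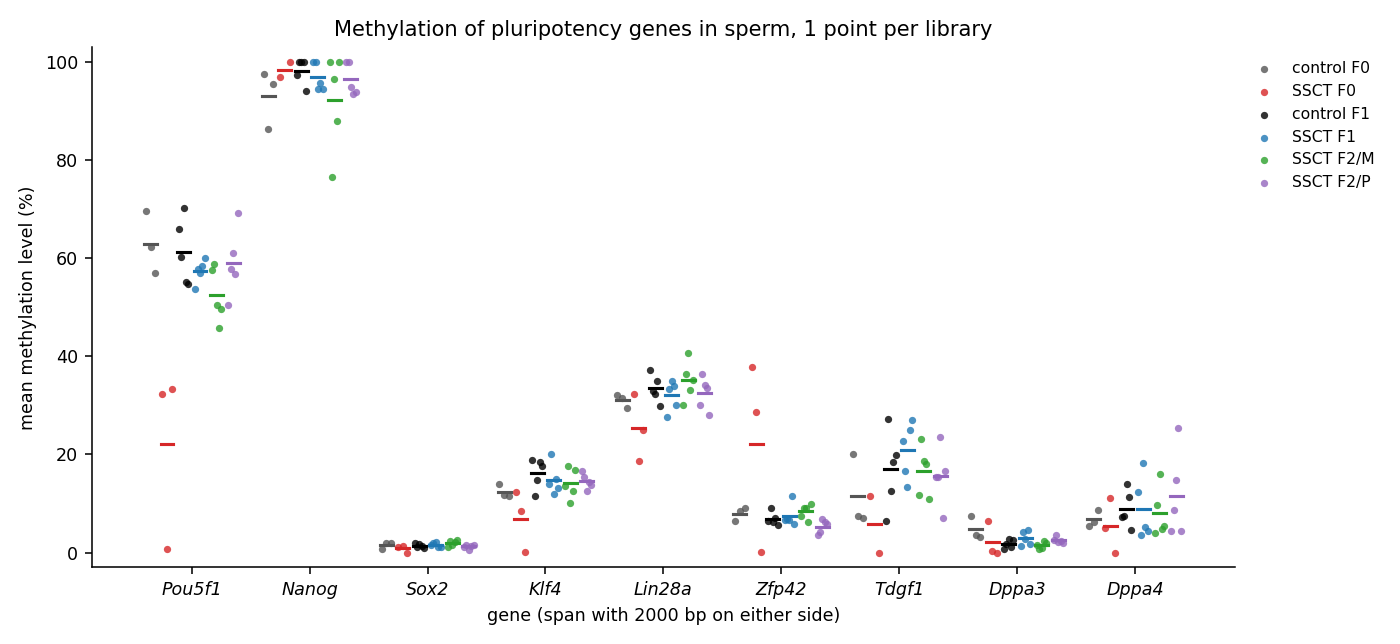
Methylation (%) of each gene in each library, by group, as the mean over the positions of the gene that had at least 10 reads in that library; each point is 1 library and each short line the mean of its group. Nanog sits near 100% and Sox2 near 0% in all groups, and the SSCT F0 points are the ones that leave the range of the others, with Zfp42 at 0.0404, 28.7 and 37.8%.

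Of the core factors, Nanog was measured only in its body, at 4 positions between 594 and 632 bp after the start. These were methylated in every library that read them. Control F0 was at 86.3, 95.6 and 97.5%, control F1 at 98.3% ± 2.65 (94.0 to 100%), SSCT F1 at 96.9% ± 2.85 (94.5 to 100%) and SSCT F2/P at 96.5% ± 3.27 (93.4 to 100%). SSCT F2/M was at 92.2% ± 10.0, with 1 library at 76.7% and the others at 88.0 to 100%. SSCT F0 replicate 1 was at 97.0% and replicate 2, at 2 positions, at 100%.

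Pou5f1 passed from nearly unmethylated to nearly fully methylated within the gene. The offspring averaged 5.30% ± 6.17 in the first 500 bp, 19.8% ± 6.80 between 501 and 1000 bp, 93.8% ± 8.77 between 1001 and 2000 bp, and 97.4% ± 3.65 beyond. Before the start the libraries lay far apart, at 32.9% ± 35.1 in the 1000 bp next to it (0 to 100%, 13 of 20 offspring measured). At the positions each library measured itself, the body was at 73.2, 73.6 and 77.3% in control F0 and at 74.2% ± 1.22 (72.9 to 75.6%) in control F1. SSCT F1 was at 72.8% ± 2.26 (69.2 to 75.2%), SSCT F2/M at 67.3% ± 8.97 (52.0 to 73.5%) and SSCT F2/P at 72.1% ± 2.37 (69.5 to 75.2%). All groups overlapped except SSCT F0, which was at 45.1, 0.714 and 33.3% over 14, 4 and 3 positions and below every other library. The SSCT F0 libraries read partly other positions of the gene. At the 4 positions that all other libraries shared, replicate 1 was at 28.1%. Control F0 was there at 53.4, 38.4 and 29.0% and the offspring at 16.5 to 50.0%. At 3 of these, which replicate 2 also measured, replicates 1 and 2 were at 4.17 and 0%. Control F0 was at 37.9, 17.9 and 5.30% at those 3 and the offspring at 0.725 to 34.2%. A position 2485 bp after the start (chr17:35508517) was at 100% in the 3 control F0 libraries, at 90.1% in SSCT F0 replicate 1 and at 2.86% in replicate 2, over 15 to 101 reads.

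Sox2 was the reverse of Nanog. It was close to 0 along its whole length, with bin means between 1.03 and 2.24% in the offspring from 2000 bp before the start to the end of the region. Its positions also lie in Sox2ot, the long non-coding gene that contains Sox2. The means of the groups, again at each library's own positions, ranged from 0.849% ± 0.738 in SSCT F0 to 2.01% ± 0.603 in SSCT F2/M. Klf4 had an unmethylated start and a methylated far end. It averaged 1.62% ± 1.10 in the 1000 bp before the start, 1.21% ± 0.879 and 1.30% ± 1.33 in the 2 bins of 500 bp after it, 20.9% ± 5.21 between 1001 and 2000 bp and 89.2% ± 6.03 beyond.

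Among the genes downstream of the core factors, Lin28a had the same form as Klf4. Its positions were at 2.35% ± 2.26 in the 1000 bp before the start and at 2.55% ± 3.29 in the 500 bp after it. They rose to 12.2% ± 5.08 between 1001 and 2000 bp, to 81.3% ± 4.46 between 2001 and 10000 bp and to 82.5% ± 14.4 beyond, where each library measured 2 to 9 positions. Tdgf1 was at 2.01% ± 3.59 in the 1000 bp before the start, at 93.8% ± 14.9 between 2000 and 1001 bp before it (15 of 20 offspring measured) and at 96.3% ± 15 at the 2 positions of its body (18 of 20 offspring measured). Zfp42 was low in every bin that all offspring libraries measured, at 7.40% ± 3.57 before the start, 3.77% ± 2.59 between 1001 and 2000 bp, and 8.34% ± 2.09 in the far end of the gene beyond 10000 bp. Between 2001 and 10000 bp it had 2 positions, each read in 1 library and at 100% there, 1 in control F0 and 1 in SSCT F2/M. Dppa3 was at 1.52 to 2.94% and Dppa4 at 7.99 to 11.5% as means of the offspring groups at their own positions.

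**Figure D2:**
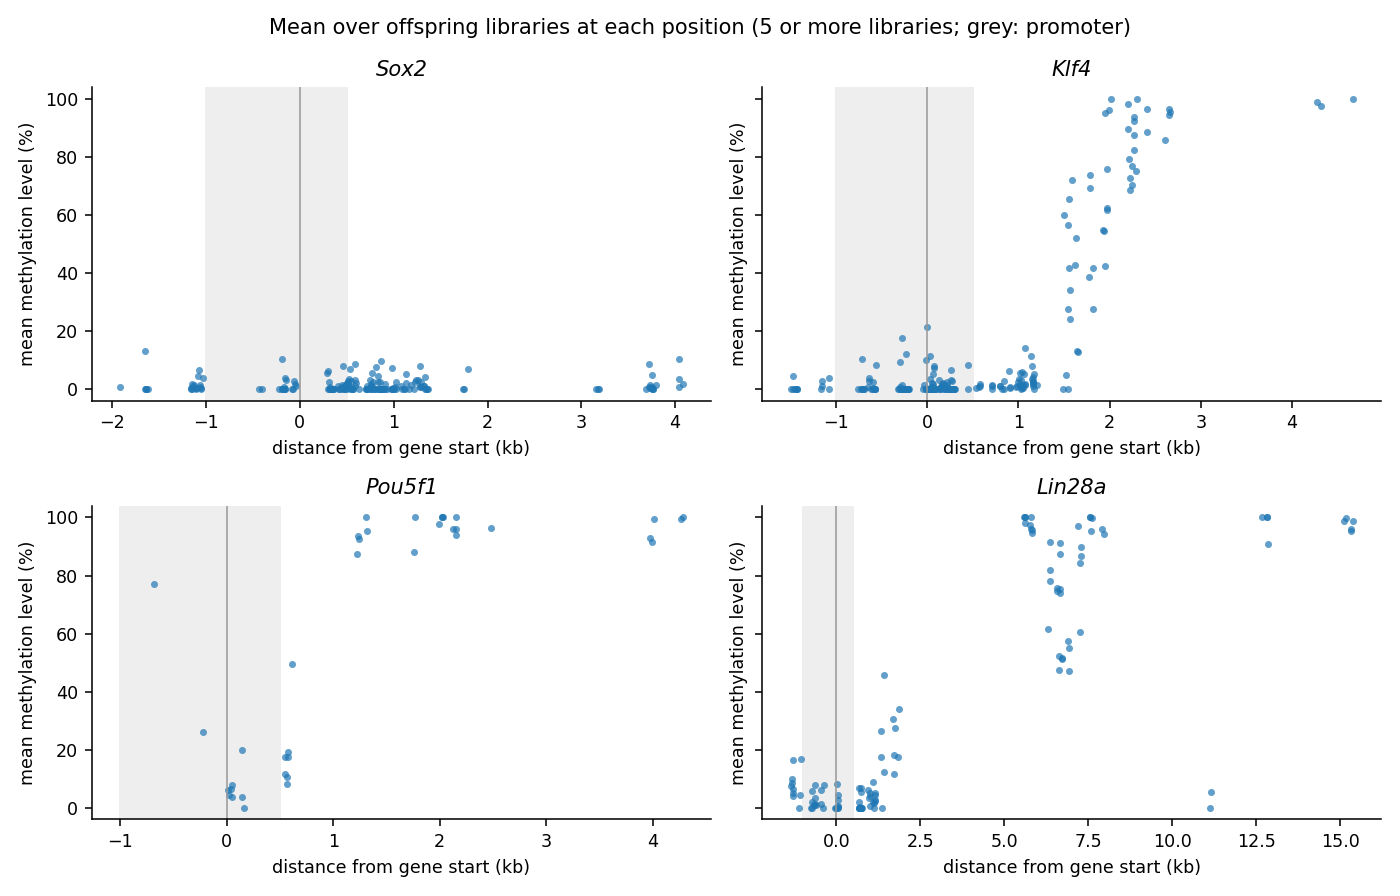
Methylation (%) of single positions of Sox2, Klf4, Pou5f1 and Lin28a against the distance from the gene start (kb); each point is the mean over the offspring libraries at 1 position measured in 5 or more of them, and grey marks the promoter. Klf4, Pou5f1 and Lin28a climb inside the gene, to bin means of 89.2, 97.4 and 81.3%, while Sox2 stays low along its length, with bin means up to 2.24%.

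The promoter and the gene body were compared within each library, with 100000 random sign flips of the difference over the 20 offspring libraries (two-sided) and Benjamini-Hochberg correction over all 8579 genes that could be tested. Only 3 of the 9 genes had positions shared by all 20 libraries in both. At Klf4 the promoter was at 1.27% ± 0.784 and the body at 20.1% ± 4.12, a difference of -18.8 ± 4.40 percentage points that was negative in 20 of 20 libraries (permutation test, adjusted p = 2.61e-05, the smallest that the flips can give). At Lin28a the values were 2.79% ± 2.18 and 47.3% ± 2.66, a difference of -44.5 ± 2.91 points in 20 of 20 libraries with the same adjusted p of 2.61e-05 in the permutation test. At Zfp42 they were 8.59% ± 3.86 and 10.3% ± 2.38. The difference of -1.73 ± 3.98 points was negative in 12 of 20 libraries and did not pass (permutation test, adjusted p = 0.0793). So 2 of 3 genes had the lower promoter, where 79.7% of all genes tested did and 5.55% had the higher promoter. The medians over all genes were 1.81% in the promoter and 58.6% in the body, with a median difference of -49.3 points.

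When each library kept its own positions, a setting chosen after the data had been seen, 6 of the 9 genes could be tested and 4 had the lower promoter, against 79.9% of all genes. Pou5f1 was then at 8.78% in the promoter and 71.6% in the body, lower in 20 of 20 libraries by 62.8 ± 13.2 points. Tdgf1 was at 1.73% and 96.3%, lower in 18 of 18 by 94.7 ± 15.3 points. Sox2, with -0.344 points (12 of 20 libraries), and Zfp42, with 0.515 points (lower promoter in 9 of 20), did not pass. Sox2 and Zfp42 were thus low in both promoter and body at the positions measured. For Zfp42 only 2 of these lay between 2001 and 10000 bp after the start, and they were at 100% where read.

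**Figure D3:**
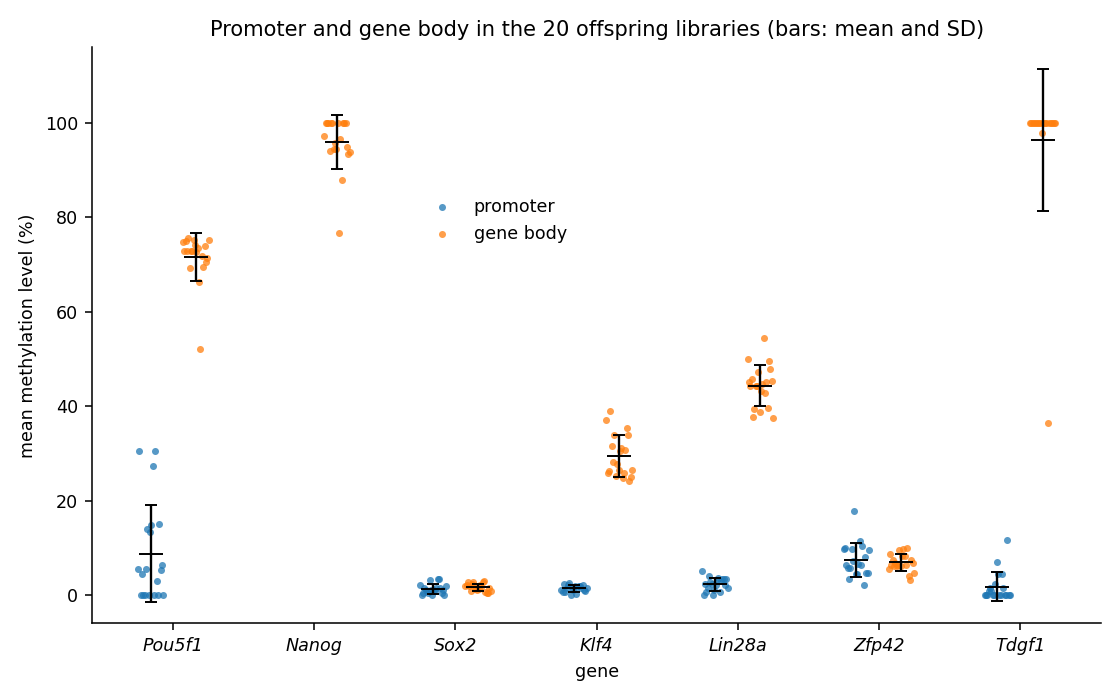
Methylation (%) of promoter and gene body in the offspring libraries, at each library's own positions; each point is 1 library, bars give the mean and SD, and Nanog has body positions only. The bodies of Pou5f1, Klf4, Tdgf1 and Lin28a lie above their promoters, while Sox2 and Zfp42 are low in both.

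The offspring groups were then compared with control F1. The mean of each gene, promoter and body was compared over mice by an exact permutation test (two-sided) with Benjamini-Hochberg correction over all genes. No difference of the 9 genes passed at an adjusted p under 0.05, where 0% of all genes did by this test in each comparison. With 5 mice a group the exact permutation test gives no p below 0.00794. After correction a gene could therefore pass only if very many genes reached that value, so the lack of a pass says little about single genes. At an unadjusted p under 0.05 there were 0 genes, promoters or bodies of the 9 in any SSCT offspring group, the F2 lines pooled or not. The share of all genes at that level is not given here. With at most 9 genes tested, these counts of 0 therefore do not tell whether the 9 genes differed less than others. By limma on the log2 ratio of both read numbers, 0 of the 8 genes measured in SSCT F1 were called (0.0105% of all genes). It also called 0 of the 9 genes in SSCT F2/M (0% of all genes), SSCT F2/P (0.00682%) and the pooled F2 group (0%). No promoter was called by limma, of the 9 or of all genes. No gene of the 9 had groups that did not overlap, where 0.649% of all genes did in SSCT F1, 0.708% in SSCT F2/M, 0.761% in SSCT F2/P and 0.0991% in the pooled F2 group. In the 3 pairs of offspring sets without control F1, 0 gene means of the 9 passed the exact permutation test and 0 did not overlap, where 0.679%, 0.754% and 0.609% of all genes did not.

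The whole-gene differences of the 8 genes measured in SSCT F1 ran from -1.41 points at Lin28a to 1.32 points at Pou5f1. In SSCT F2/M the difference farthest from 0 was that of Nanog, at -6.03 ± 4.63 points (SE, exact permutation test, p = 0.286, adjusted p = 1). In SSCT F2/P it was that of Zfp42, where the 5 mice were at 4.89, 5.78, 8.46, 8.63 and 6.88% and control F1 at 8.92, 11, 9.51, 8.29 and 7.87% over 37 positions. The groups overlapped, and the difference of -2.19 ± 0.915 points (SE) gave p = 0.0556 and adjusted p = 1 in the exact permutation test.

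Single CpGs were also compared, by a logistic model of methylated and unmethylated reads with a chi-square likelihood-ratio test, and called when the methylation of the summed reads differed by more than 25 percentage points with an adjusted p below 0.01. In this test every read counts as independent evidence, and mice of a group are not allowed to vary. In SSCT F1 it called 0 of 188 positions of the 9 genes (0.463% of all positions), in SSCT F2/M 0 of 216 (0.421%), in SSCT F2/P 1 of 243 (0.431%) and in the pooled SSCT F2 group 1 of 197 (0.188%). Both calls were the same Klf4 position, chr4:55530689, 1786 bp after the start. It was at 67.2, 72.4, 29.2, 0 and 50.0% in SSCT F2/P and at 45.5, 100, 100, 96.0 and 100% in control F1, over 17 to 64 reads, so that the groups overlapped while the summed reads differed by -31.6 points. A neighbouring Klf4 position, chr4:55530687, was called between SSCT F2/P and SSCT F2/M, as 1 of 245 tested (0.404% of all positions), with 76.6, 72.4, 38.3, 60.0 and 50.0% against 65.5, 100, 100, 75.9 and 100%. An F test scaled by the spread between libraries called 0 positions in each of these comparisons. No window of 1000 bp was called in the 9 genes, of 30 to 33 tested, where 0.415% of all windows were in SSCT F1, 0.364% in SSCT F2/M, 0.393% in SSCT F2/P and 0.143% in the pooled F2 group.

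Control F0 and control F1, which differ in age and generation, were compared in the same way to show how far untreated mice move. The test called 3 of 258 positions (0.864% of all positions), 2 in Klf4 and 1 in Lin28a, and 0 of 33 windows (0.856% of all windows). The gene means gave 0 calls (0% of all genes) and 0 without overlap (3% of all genes). The Klf4 position at chr4:55530910, 1565 bp after the start, was at 100, 63.6 and 87.9% in control F0 and at 50.0, 12.8, 45.5, 52.6 and 27.3% in control F1, and here the groups did not overlap. The other Klf4 position (chr4:55530660) had control F0 mice at 77.8, 79.6 and 0% and the Lin28a position (chr4:134016977) had them at 60.0, 50.0 and 38.1%, whereas control F1 ranged from 9.09 to 45.5% and from 0 to 40%. Of the promoter means, that of Klf4 did not overlap between the groups (2.82% of all promoters), at 0.794% ± 0.457 in control F0 and 2.08% ± 1.25 in control F1, a difference of -1.28 points with p = 0.0893 and adjusted p = 1 in the exact permutation test. The Klf4 positions called among offspring and controls all lay between 1001 and 2000 bp after its start, the bin in which it passes from unmethylated to methylated.

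In SSCT F0 the 9 genes were read at few positions, and the values of single libraries lay far apart. Over all 3 mice the chi-square test called 1 of 40 positions (5.8% of all positions), at chr4:134012156 in Lin28a, 6660 bp after the start. SSCT F0 was at 93.1, 58.3 and 0% and control F0 at 100, 92.2 and 80.7%, so that the groups overlapped and the difference of -76.6 points in pooled reads rested on replicate 3, which supplied up to 535 reads. None of 13 windows was called (9.95% of all windows). Of 5 genes measured over mice, Klf4 did not overlap between the groups (11.6% of all genes). Its 14 positions were at 0.155, 0 and 0.0172% in SSCT F0 and at 2.68, 1.62 and 0.677% in control F0, with p = 0.1 in the exact permutation test, the smallest p that 3 mice against 3 allow, and adjusted p = 0.859. The Klf4 promoter, 10 of these positions, did not overlap either (9.63% of all promoters). The SSCT F0 levels of Klf4 lie under the 0.542 to 1.26% of the unmethylated control DNA. Without replicate 3 the whole gene overlapped, at 9.15 and 8.22% against 10.7, 10.8 and 7.55% over 61 positions, and the promoter did not (21.5% of all promoters), at 0.198 and 0% against 1.56, 1.15 and 0.420% over 24 positions (exact permutation test, p = 0.2, adjusted p = 0.920). Zfp42, over 6 positions, was at 23.7, 59.6 and 0.0404% in SSCT F0 and at 16.8, 9.88 and 11.3% in control F0 (15.1 points, exact permutation test, p = 0.6, adjusted p = 1). No gene, promoter or body could have an unadjusted p under 0.05, since the exact permutation test with 3 mice against 3 gives none below 0.1. By limma 0 of the 5 genes measured were called (0% of all genes) and 0 of the 3 promoters measured (0.0737% of all promoters).

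Without SSCT F0 replicate 3, which left 2 mice against 3, all 9 genes could be measured and the differences ran from -27.1 points at Pou5f1 to 19.4 points at Zfp42. The chi-square test called 18 of 235 positions (5.83% of all positions), 12 of them higher (2.86% of all positions) and 6 lower in SSCT F0. Zfp42 held 8 of them, all higher, Klf4 held 5, Lin28a 2 and Sox2, Dppa3 and Pou5f1 1 each. The 5 Klf4 calls lay between 1774 and 2221 bp after the start. They went in both directions, and in each of them the groups overlapped. In Lin28a both called positions separated the groups, one higher (90.1 and 59.2% against 34.4, 22.1 and 54.8% at chr4:134012191) and one lower (0 and 0% against 60.0, 50.0 and 38.1% at chr4:134016977). The windows called were 3 of 27 (10.1% of all windows): 1 of Zfp42, higher, and 1 each of Lin28a and Pou5f1, lower.

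At Zfp42 the called window lay at the far end of the gene, inside its annotated span and opposite to the promoter. Of the called Zfp42 positions, 1 lay in the promoter, at chr8:43307812, 803 bp before the start, where the groups overlapped. The others lay in that window. The window chr8:43295001-43296000 was at 46.8 and 90.9% in SSCT F0 replicates 1 and 2 and at 6.78, 10.0 and 12.9% in control F0 over 7 positions. Its summed reads, to which mice contributed unequally, differed by 70.4 points (chi-square test, adjusted p = 6.86e-213). That p counts every read as independent and does not measure the spread between the 2 and 3 mice. The 7 positions of the window, which lie between chr8:43295706 and chr8:43295907, were all called, with groups that did not overlap at any of them. At chr8:43295873, chr8:43295880 and chr8:43295907 both SSCT F0 mice were at 100% and the 3 control F0 mice at 0%, over 10 to 43 reads. At chr8:43295753 they were at 35.0 and 89.9% against 30.3, 4.72 and 25%, the smallest margin of the 7. Neighbouring positions are read by the same restriction fragments and are not independent.

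The far end was also followed over all positions that each library measured beyond 10000 bp from the start, a stretch chosen after its values had been seen and given with no test. SSCT F0 replicate 1 was at 67.3% over 27 positions between 10611 and 11399 bp, with 13 to 40 reads each. Of these, 26 were above all control F0 libraries and 21 above all offspring libraries. At the same positions control F0 was at 6.34, 10.1 and 10.2% and the offspring at 4.97 to 12.7% (median 8.16%). Replicate 2 was at 65.7% over 10 positions, 7 of them above all control F0 and offspring libraries and 3 at 0%, where control F0 was at 5.19, 5.20 and 11.5% and the offspring at 0 to 13%. Replicate 3 was at 0% at the 4 positions it measured, with 388 to 390 reads each, where control F0 was at 9.09, 13 and 15.4%. So 2 of 3 transplanted mice were high and 1 was at 0. At the 7 positions that replicates 1 and 2 both measured they were at 61.5 and 93.9%, against 5.19, 7.43 and 8.80% in control F0 and 0 to 13.3% in the 20 offspring, all of which stayed low, the offspring of transplanted males included. Replicate 1 was within the range of control F0 before the start, at 8.88%, and between 1001 and 2000 bp, at 7.69%, and above it between 501 and 1000 bp, at 9.63% over 3 positions against 5.60, 1.66 and 3.13%. Replicate 2 was at 32.1% before the start, and its position chr8:43307812 was at 100%, where replicate 1 was at 0% and control F0 at 0 to 19.4%.

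**Figure D4:**
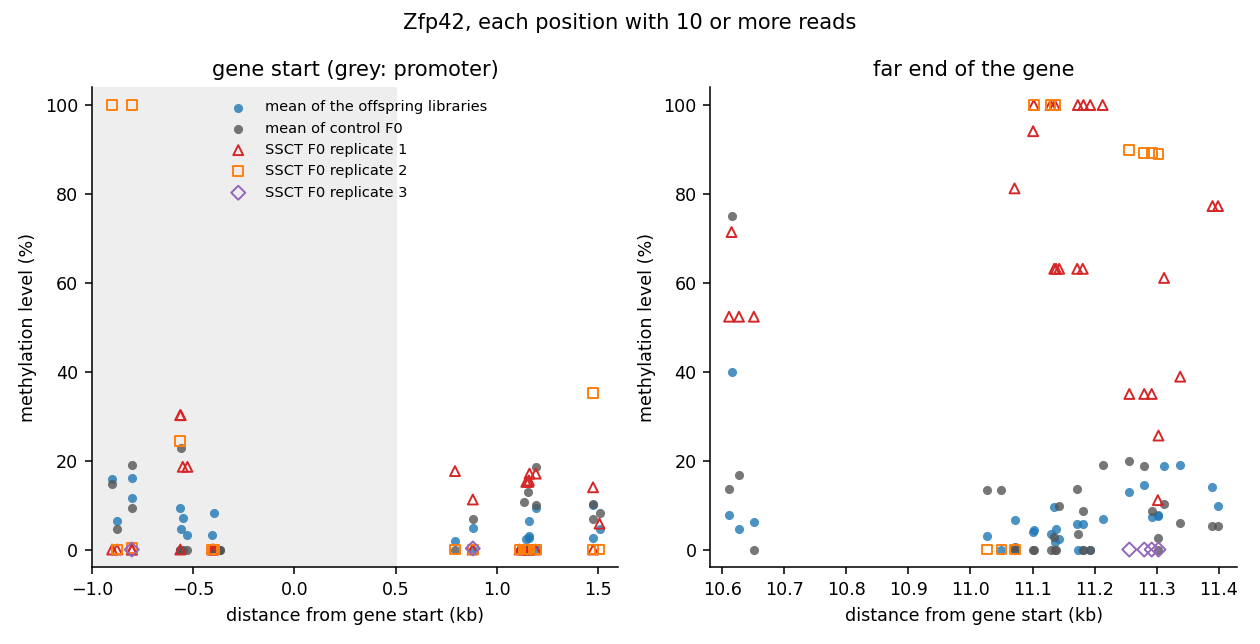
Methylation (%) of single Zfp42 positions against the distance from the gene start (kb), near the start (left, promoter in grey) and at the far end (right), without the 2 positions between; open symbols are the 3 SSCT F0 libraries, and filled points the means of the control F0 and offspring libraries. At the far end SSCT F0 replicate 1 averages 67.3% and replicate 2 65.7%, above the control F0 and offspring means except at 1 position of replicate 1, below the control F0 mean, and 3 positions of replicate 2 at 0%, and replicate 3 is at 0% at its 4 positions.

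As a whole gene without replicate 3, Zfp42 was at 20.0 and 31.9% in SSCT F0 and at 5.00, 6.56 and 8.07% in control F0 over 28 positions. The groups did not overlap (25.2% of all genes, 9.9% in this direction), and the difference of 19.4 ± 6.02 points (SE) gave p = 0.1 in the exact permutation test, the smallest that 2 mice against 3 allow, and adjusted p = 0.627. Of 26736 genes, 465 (1.74%) did not overlap and were higher in SSCT F0 by more than 15 points. Pou5f1 did not overlap either, at 25.7 and 0.714% against 53.4, 38.4 and 29.0% over 4 positions (-27.1 points, exact permutation test, p = 0.2, adjusted p = 0.752). The promoters of genes unmethylated in sperm averaged 5.89 and 3.99% in replicates 1 and 2 against 2.36 to 3.90% in control F0, and the part of DNA from other cells in the Zfp42 and Pou5f1 values was not tested. Differences from control F0 in strain of the host, culture and DNA input cannot be told apart.

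A wider list of 20 pluripotency genes was measured for comparison. In SSCT F0 14 could be measured over all 3 mice, and 0 had groups that did not overlap (11.6% of all genes). Their median difference was -0.884 points, against -0.478 over all genes. The 3 farthest from 0 were Fgf4, a growth factor of the early embryo, at 11.7% ± 18.8 against 4.25% ± 4.90 in control F0, Dppa5a at 0% against 6.87% ± 6.46, and Tbx3, a T-box transcription factor, at 2.51% ± 2.08 against 5.83% ± 2.34. The Fgf4 value came from 3 positions and rested on replicate 3, at 33.3% against 1.71 and 0% in the others, and without it the difference was 1.42 points over 43 positions instead of 7.43. The Dppa5a value came from 1 position. Without replicate 3, 18 could be measured and 6 did not overlap (25.2% of all genes): Prdm14, Sall4 and Foxd3 were higher, by 1.01 to 5.97 points, and Tbx3, Nr5a2 and Lefty1 lower, by 2.51 to 3.44 points, names given after their values were seen. In SSCT F1 18 were measured, with a median difference of 0.0119 points (0 over all genes) and 0 without overlap (0.649% of all genes). The 3 farthest from 0 were Dppa2, the partner of Dppa4, at 76.0% ± 5.30 against 72.7% ± 5.58 in control F1, Dppa5a at 9.22% ± 9.69 against 7.72% ± 6.60, and Klf5 at 1.37% ± 0.831 against 2.78% ± 1.25. None of the 20 passed the exact permutation test after correction in any comparison, and neither did any other gene tested. In SSCT F2/P 1 of the 18 measured did not overlap with control F1 (0.761% of all genes), Tcl1, which was singled out after its value was seen and encodes a co-activator of the kinase AKT. It was at 93.7 to 97.6% in SSCT F2/P and at 100% in the 5 control F1 mice over 5 positions (-4.22 points, exact permutation test, p = 0.00794, adjusted p = 1).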

How the data were processed

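For each of 26 RRBS libraries the authors deposited the coverage of every CpG position as a count of reads and the methylated share as a fraction between 0 and 1, with strands separate; the submitters' processing notes name FastQC, Trim Galore 0.4.1, Bismark 0.20.0, methylKit 1.7.0 and GRCm38/mm10. Fraction times coverage gave whole methylated reads at all but 78 positions. Strand-specific positions with 10 reads in every library compared and at most the 99.9th percentile were tested singly and in windows of 1000 bp. Gene, promoter and body values were unweighted means over positions, 1 per library. Python 3.11.15, numpy 2.4.6, scipy 1.17.1, pandas 2.3.3, R 4.3.3 and limma 3.58.1 were used. Tests were checked on simulated data. For the read-based tests, reads were drawn as independent, with the same level in all mice of a group at an unchanged position. That check therefore does not cover the spread between mice. With 5 mice a group no exact p can be below 0.00794, with 3 a group none below 0.1. Same-numbered mice did not deviate together (correlations -0.0207 to 0.0225 over 46151 positions) and no libraries were duplicates (smallest mean chi-square between a pair 5.94). The 9 genes and the wider list were chosen with earlier results of these data known. Named were all 9 genes, every called position or window (or their counts by gene) and, of the wider list, the 3 genes farthest from 0 in SSCT F0 and in SSCT F1. Nothing says that reads of a library are independent molecules, so read-based tests cover counting error only. Alternatives, and results without each library, are given at the end.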

Additional observations from a re-analysis of the deposited data

Results flagged for a closer look

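Of 86 groups with 4 or 5 libraries in which a level of the 9 genes was measured, 8 held a library that lay far from the others by Dixon's test at 95%. Chance alone does this in about 1 in 20 groups of independent, normally distributed values. The levels here are bounded, some are tied at 0 or 100%, and gene, promoter and body values share positions. The 8 groups therefore cannot be set against that rate. At Zfp42, SSCT F1 replicate 4 was at 11.5% over the whole gene (49 positions), where the others were at 5.78 to 6.81%, and at 9.62% in the body, where they were at 6.03 to 6.86%. The Pou5f1 promoter was at 30.5% in control F1 replicate 2 over 8 positions and at 0 to 5.56% in the others. The Klf4 promoter was at 0.131% in SSCT F2/M replicate 2 and at 1.79 to 1.99% in the others. The Tdgf1 promoter was at 11.7% in SSCT F2/P replicate 3 and at 0% in the other 4. The Tdgf1 body was at 97.9% in SSCT F1 replicate 5, over 2 positions, and at 36.4% in SSCT F2/M replicate 5, over 1 position, where the others of each group were at 100%. The Lin28a body was at 54.5% in SSCT F2/M replicate 3 and at 42.8 to 45.0% in the others. Libraries measured partly different positions, and the part of this in these values was not tested.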

How the results depend on the processing

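The gene and promoter comparisons kept 0 differences of the 9 genes under every alternative run. Body comparisons between groups were not run under the alternatives. No difference that had passed as reported changed sign. With 5 mice a group the exact test could pass a gene only if very many genes reached its smallest p. With 3 against 3 it could pass none. Of the differences for single genes, 979 stayed, 168 that had not passed as reported changed sign and 8 lost their call. Of the counts 228 stayed and 61 moved. Those that moved were counts of called CpGs and windows and of promoter differences, and the cause was not tested except where given. An F test, with the spread of the libraries as its error, called 0 in SSCT F0, SSCT F2/P, SSCT F2 and control F0 against control F1. A difference above 10 points called 10 each in SSCT F0 and in SSCT F1, 14 in SSCT F2/M, 12 in SSCT F2/P, 13 in SSCT F2 and 21 between the controls. The counts of CpG and window calls in this section are given without the share of all positions or windows under the same setting. They therefore do not tell whether the 9 genes were called more or less often than other genes. A coverage of 5 reads called 2 in SSCT F2/M, 3 in SSCT F2/P and 2 in SSCT F2, and one of 20 reads called 0 in SSCT F2/P, SSCT F2 and between the controls. With the names of the heat map, as they stand or with both F2 lines exchanged, 1 was called in SSCT F1 and 0 in SSCT F2/P and SSCT F2.

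Leaving out each library gave 1 to 18 CpG calls and 0 to 3 window calls in SSCT F0 (18 and 3 without SSCT F0 replicate 3, 2 CpGs without SSCT F0 replicate 1 or control F0 replicate 2). It gave 0 to 2 CpG calls in SSCT F1 (2 without SSCT F1 replicate 2 or control F1 replicate 4), 0 to 3 in SSCT F2/M (3 without SSCT F2/M replicate 4), 1 to 2 in SSCT F2/P and 0 to 1 in SSCT F2 (0 without SSCT F2/M replicate 4, SSCT F2/P replicates 3 or 4, or control F1 replicates 2, 3 or 5). Between the controls it gave 3 to 6 (5 to 6 without a control F0 library).

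Of the promoter and body differences, 2 passed as reported, 1 with the promoter from 250 bp before to 50 bp after the start (1 gene tested), 4 with 5 reads, 1 with 20 reads and 4 with each library's own positions. In each set of 5 offspring alone 0 could pass, since 5 sign flips allow no p under 0.0625, which makes Klf4 and Lin28a weaker there with the direction kept.

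The replicate numbers only name the samples. A fit with the replicate number as a block called 1 CpG each in SSCT F0 and SSCT F2/P, 0 in SSCT F1 and SSCT F2/M and 2 between the controls, and the block changed no gene comparison from 0. In SSCT F0 the number of positions with 10 reads limits what was measured, with 42 positions of the 9 genes in all 6 F0 libraries.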
